A study of Glycine max with 18 samples.

Results

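Seed germination ends with cell wall loosening, and 3 genes of the cell wall are described here across germinating soybean seeds of the low phytate mutants TW-1-M and TW-1. They are an expansin, gene47663 (expansin-A1-like, LOC100816718, XM_003549635.3), an endo-1,3-beta-glucanase, gene31117 (LOC547748, NM_001250342.1), and a polygalacturonase inhibitor-like gene, gene43660 (XM_014767723.1). The gene numbers are those of the study, whose additional files pair them with RefSeq IDs. All 3 IDs were found among the 45955 genes of the deposited table. The study placed them on its lists because they differed between the mutants or were abundant, so differences between TW-1-M and TW-1 are given for them as values with no test.

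Expansins loosen the wall of a plant cell without cutting its polymers, by weakening the contacts between cellulose and the glycans bound to it, and they let the cell extend under turgor. Endo-1,3-beta-glucanases cut 1,3-linked beta-glucan, such as callose, and in tobacco seeds one is known to act in the endosperm that the root has to break. Polygalacturonase inhibitors are leucine-rich repeat proteins of the cell wall that bind polygalacturonases of fungi, enzymes that cut pectin.

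TW-1-M is a natural mutant that was found in the TW-1 line and traces to an individual plant, and TW-1 came from gamma irradiation of the variety Taiwan 75. Both carry the same small deletion in the gene of a myo-inositol phosphate synthase that gives the low phytate trait, so neither is a wild type, and the labels give a significantly higher field emergence for TW-1-M and a very low one for TW-1. Each was sampled as whole germinating seed at 3 stages with 3 replicates, which gave 18 libraries. A group carries its stage as the last digit of its name (TW-1-M-2 is TW-1-M at stage 2). Seeds of stage 1 were imbibed, those of stage 2 were taken 12 h after imbibition by the labels (the study's methods count the time differently), and those of stage 3 had a root of 1 mm.

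Expression was measured as FPKM, the fragments per kilobase of transcript, scaled to the mapped fragments of the library. Read counts were not used here and FPKM alone does not give the depth of a library, so no counting error is given. Between 30656 and 34820 genes were above 0 in a library. The summed FPKM of 7 seed storage genes (GY2, GY3, GY4, GY5, KTI1, KTI3 and P34) ran between 65.8 and 1922 over the libraries. GY1, KTI2 and LE1 were not matched. By the group means, the summed FPKM of 3 leaf markers was above the storage sum in TW-1-M-2 (741 against 339) and TW-1-M-3 (1289 against 103). The same held in TW-1-3 (1467 against 459), and in the other groups the leaf sum was the lower. With no reference level, these sums do not check the seed label. Replicate 1 of TW-1-3 stood apart. Its log2 values had a mean correlation of 0.779 with the other TW-1-3 libraries, against 0.929 with TW-1-1, and it had the fewest genes above 0. Replicate 1 of TW-1-2 also lay nearer TW-1-1 (0.960) than its own group (0.915), and the TW-1-2 means include it. For the 3 genes, differences between the mutants at stage 3 and changes with stage are also given without replicate 1 of TW-1-3. This was done where that library moved the value by over 1.5 times or changed a call. The labels do not say whether replicates came from separate seed lots, so p-values measure only the spread between these libraries, which may be technical. In whole seeds, fewer cells of a type and less RNA per cell cannot be told apart.

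The expansin gene47663 had lower values in TW-1-M, at every stage, than in TW-1 and fell with germination. In TW-1-M-1 it had 22.7, 33.4 and 25.3 FPKM, against 128, 114 and 182 FPKM in TW-1-1. In TW-1-M-2 it had 2.81, 5.72 and 2.51 FPKM, against 109, 64.0 and 82.4 FPKM in TW-1-2. In TW-1-M-3 it had 0.60, 1.26 and 0.12 FPKM, against 95.3, 5.83 and 3.88 FPKM in TW-1-3. The values of the mutants did not overlap at any of the 3 stages, and the seeds of TW-1-M at stage 3 had come close to the bottom of the scale. Over all genes tested, the share with all TW-1-M values below all TW-1 values was 13.2% at stage 1, 21.5% at stage 2 and 11.4% at stage 3.

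**Figure D1:**
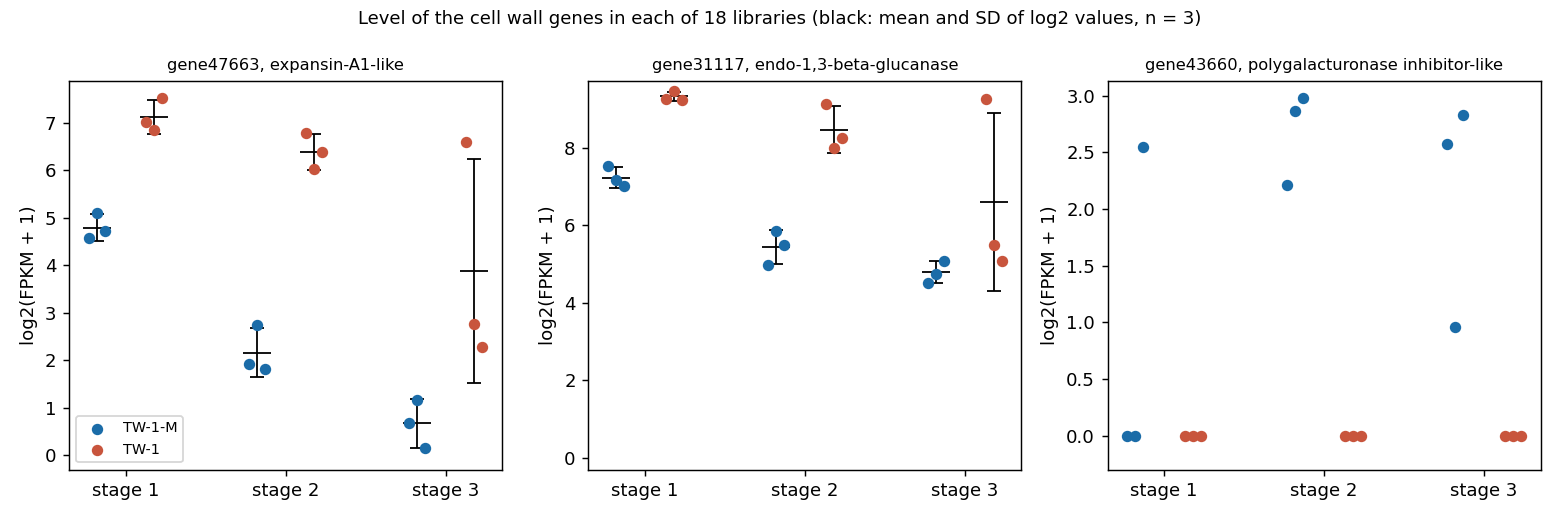
Level of gene47663, gene31117 and gene43660 in each of the 18 libraries, as log2(FPKM + 1), by stage, with TW-1-M (blue) left of TW-1 (red); each point is a library, and black marks give the mean and SD of the log2 values (n = 3), left out for gene43660. The expansin and the glucanase step down with stage and lie lower in TW-1-M, replicate 1 of TW-1-3 sits with the earlier stages of TW-1 (95.3 and 607 FPKM), and the inhibitor is at 0 in all 9 TW-1 libraries.

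The mean of gene47663 was 27.1 ± 5.57 FPKM in TW-1-M-1, 5.20-fold below the 141 ± 35.8 FPKM of TW-1-1 (SD, n = 3 each). At stage 2 it was 3.68 ± 1.77 FPKM in TW-1-M-2 and 85.0 ± 22.4 FPKM in TW-1-2, a 23.1-fold difference. At stage 3 it was 0.66 ± 0.57 FPKM in TW-1-M-3 and 35.0 ± 52.2 FPKM in TW-1-3, which is 53.0-fold by the means. The last ratio rests mostly on 1 library: without replicate 1 the TW-1-3 mean was 4.86 FPKM and the difference 7.36-fold (n = 2). On the log2 scale of the group means, the stage 3 ratio of -5.73 lay just inside the study's cutoff of 5 in either direction and the stage 2 ratio of -4.53 just outside it. Without replicate 1 of TW-1-3 the stage 3 ratio was -2.88.

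Ordered by the group means, gene47663 was highest in stage 1 of TW-1, followed by its stages 2 and 3 and then by stages 1, 2 and 3 of TW-1-M. TW-1-2 overlapped TW-1-3, and TW-1-3 overlapped TW-1-M-1, while the other neighbours in this order did not overlap.

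The change with stage, averaged over TW-1-M and TW-1, does not use the difference between the mutants for which genes were chosen. It was tested with limma over the 18 libraries. Abundance above 100 FPKM, for which gene31117 was listed, can depend on stage, so the stage test of gene31117 is not free of that choice. A gene was called where the adjusted p was below 0.05 and the log2 fold change of FPKM + 1 was beyond 1 in either direction. From stage 1 to stage 3, gene47663 fell by 3.68 on the log2 scale (SE 0.54, limma adjusted p = 9.3e-05). Of the 27150 genes tested, 14.5% were called lower in the same comparison. The call held with each library left out in turn, with the change between -4.36 and -3.28.

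The single steps of the expansin were less firm. It fell by 1.68 between stage 1 and stage 2 (SE 0.54, limma adjusted p = 0.047), where 2.14% of genes were called lower. This call was lost with any 1 of 14 of the 18 libraries left out, and stood without replicate 1 of TW-1-2 or without any 1 library of TW-1-3, with the change between -1.83 and -1.58 and the adjusted p between 0.00051 and 0.11 over the 18. Between stage 2 and stage 3 it fell by 2.00 (SE 0.54, limma adjusted p = 0.030), where 2.95% of genes were called lower. Here 9 libraries ended the call when left out, namely all 3 of TW-1-M-2, replicates 1 and 3 of TW-1-M-3, replicates 1 and 3 of TW-1-2, and replicates 2 and 3 of TW-1-3, with the change between -2.68 and -1.60 and the adjusted p between 8.8e-06 and 0.085 over the 18.

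Within each mutant the steps differed in size, as values with no test. In TW-1-M the mean of gene47663 was 7.37-fold lower at stage 2 than at stage 1 and 5.58-fold lower at stage 3 than at stage 2. In TW-1 it was 1.66-fold lower at stage 2 than at stage 1 and 2.43-fold lower at stage 3 than at stage 2, with replicate 1 of TW-1-3 included. Without that library the step to stage 3 in TW-1 was 17.5-fold, with means of 4.86 FPKM at stage 3 (n = 2) and 85.0 FPKM at stage 2 (n = 3), so whether this step was the smaller or the larger of the mutants' rested on 1 library.

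The endo-1,3-beta-glucanase gene31117 was the most abundant of the 3 genes and had the same order of groups. In TW-1-M-1 it had 183, 142 and 128 FPKM, against 612, 704 and 605 FPKM in TW-1-1. In TW-1-M-2 it had 30.3, 56.6 and 43.7 FPKM, against 563, 255 and 305 FPKM in TW-1-2. In TW-1-M-3 it had 22.0, 26.0 and 32.9 FPKM, against 607, 44.2 and 32.7 FPKM in TW-1-3. The mutants did not overlap at stages 1 and 2, where 13.2% and 21.5% of all genes tested had every TW-1-M value below every TW-1 value. At stage 3 the mutants overlapped, since replicate 3 of TW-1-3 lay just below the highest TW-1-M-3 library.

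By the means, gene31117 was 4.24-fold lower in TW-1-M-1 (151 ± 28.9 FPKM) than in TW-1-1 (641 ± 55.3 FPKM; SD, n = 3 each). It was 8.60-fold lower in TW-1-M-2 (43.5 ± 13.1 FPKM) than in TW-1-2 (375 ± 165 FPKM). At stage 3 the means were 27.0 ± 5.51 FPKM in TW-1-M-3 and 228 ± 328 FPKM in TW-1-3, an 8.45-fold difference that shrank to 1.43-fold without replicate 1 of TW-1-3, whose other libraries averaged 38.5 FPKM (n = 2). The study listed this gene among those above 100 FPKM. Its group means were above that in all stages of TW-1 and in stage 1 of TW-1-M, the lowest of these being the last, at 151 FPKM. They were below it in stages 2 and 3 of TW-1-M, the nearer at 43.5 FPKM. Of the neighbours in the order of the means, TW-1-2 overlapped TW-1-3, TW-1-3 overlapped TW-1-M-1 and TW-1-M-2 overlapped TW-1-M-3.

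Averaged over the mutants, gene31117 fell by 2.58 on the log2 scale from stage 1 to stage 3 (SE 0.52, limma adjusted p = 0.00077), and this call held with each library left out (-3.24 to -2.20). The single steps missed the threshold: the change was -1.33 from stage 1 to stage 2 (SE 0.52, limma adjusted p = 0.080) and -1.25 from stage 2 to stage 3 (SE 0.52, limma adjusted p = 0.11). Both were called without replicate 1 of TW-1-3, with -1.33 and an adjusted p of 0.00094 in limma for the earlier step and -1.91 and 5.5e-05 for the later one. The expansin and the glucanase were thus both called lower at stage 3 than at stage 1, as were 14.5% of all genes tested. With 3 genes that were chosen from these libraries, no excess over that share is read.

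The polygalacturonase inhibitor-like gene43660 had the opposite pattern between the mutants and was low throughout. It was listed at 0 in all 9 TW-1 libraries. In TW-1-M-1 it was listed at 0 in replicates 1 and 2 and had 4.86 FPKM in replicate 3. In TW-1-M-2 it had 3.64, 6.27 and 6.89 FPKM, and in TW-1-M-3 it had 4.95, 0.94 and 6.12 FPKM. The mutants overlapped at stage 1 and did not at stages 2 and 3, where 25.7% and 9.86% of all genes tested had every TW-1-M value above every TW-1 value.

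An exact 0 in these files need not mean that a transcript was absent, because 16 genes with a mean of at least 50 FPKM were also listed at 0 in a library. No fold change is therefore given for gene43660 against TW-1. Across the table, 1024 genes were at 0 in all 9 TW-1 libraries and above 0 in at least 1 TW-1-M library, and 1115 genes had the mirror image of this. Limits set close to the values of gene43660 itself give lower counts by construction, so these counts do not measure how rare the pattern is. Of 45955 genes, 2 were at 0 in all 9 TW-1 libraries and at 0.9 FPKM or more in at least 7 TW-1-M libraries, gene43660 among them. The mirror image of that held for 1 gene. The change of gene43660 with stage was not called: averaged over the mutants it was 0.92 from stage 1 to stage 2 (SE 0.39, limma adjusted p = 0.099), -0.28 from stage 2 to stage 3 (SE 0.39, limma adjusted p = 0.63) and 0.63 from stage 1 to stage 3 (SE 0.39, limma adjusted p = 0.17). These averages include TW-1, in which every value was 0, and the gene passed the filter only through TW-1-M. Values of 0 add no spread, so these p-values do not show whether gene43660 changed. Replicate 3 of TW-1-M-1 moved the first and the last average most, and without it they were 1.34 and 1.06. Its group then held only values of 0.

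Other members of the families show whether the fall of the expansin and the glucanase was shared. Relatives were genes with a like annotation in the study's additional files and genes with an expansin, glucanase or inhibitor symbol in the RefSeq gene table, 25 in all, of which 20 had at least 1 FPKM in 3 libraries and were tested. The annotated ones were listed by the study from these libraries, so their counts are not independent evidence of a direction.

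Most expansins rose while gene47663 fell. Of the 19 other expansin genes 14 were tested, and from stage 1 to stage 3 10 rose, 1 fell and 3 were not called, with a median log2 fold change of 2.49 (0.11 over all genes tested, of which 19.0% were called higher). The 5 not tested, EXPB3, EXPB5, EXPB6, EXPB8 and EXPB9, had no group mean above 1.02 FPKM. Without replicate 1 of TW-1-3, 12 of the 20 tested relatives of all families rose and 2 fell.

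The most abundant expansin, EXP1 (gene49381), rose by 2.49 on the log2 scale (SE 0.66, limma adjusted p = 0.0046). It had 134 ± 119, 304 ± 51.5 and 337 ± 114 FPKM in stages 1, 2 and 3 of TW-1-M, against 37.8 ± 16.4, 133 ± 83.1 and 299 ± 225 FPKM in those of TW-1 (SD, n = 3 each). The expansin-A11-like gene41485 rose by 3.13 (SE 0.95, limma adjusted p = 0.0099), gene15555 by 2.89 (SE 0.89, limma adjusted p = 0.010) and EXP2 by 2.21 (SE 0.46, limma adjusted p = 0.00086). These 4 genes belong with gene16076 to the 5 relatives with the highest mean FPKM.

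The relatives nearest to gene47663 in direction were annotated expansin-A15. Of these, gene10684 fell by 1.16 (SE 0.33, limma adjusted p = 0.0071), a call that was lost without replicate 3 of TW-1-1 (-0.97) or without replicate 3 of TW-1-3 (-0.95). The expansin-A15-like gene16076 had a change of -1.19 that was not called (SE 0.54, limma adjusted p = 0.063). It was called without replicate 3 of TW-1-1 (limma adjusted p = 0.045) or without replicate 1 of TW-1-3 (limma adjusted p = 0.00091), and with the replicate number as a block (limma adjusted p = 0.042). In replicate 1 of TW-1-3 it stood at 355 FPKM, its highest value in any library.

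**Figure D2:**
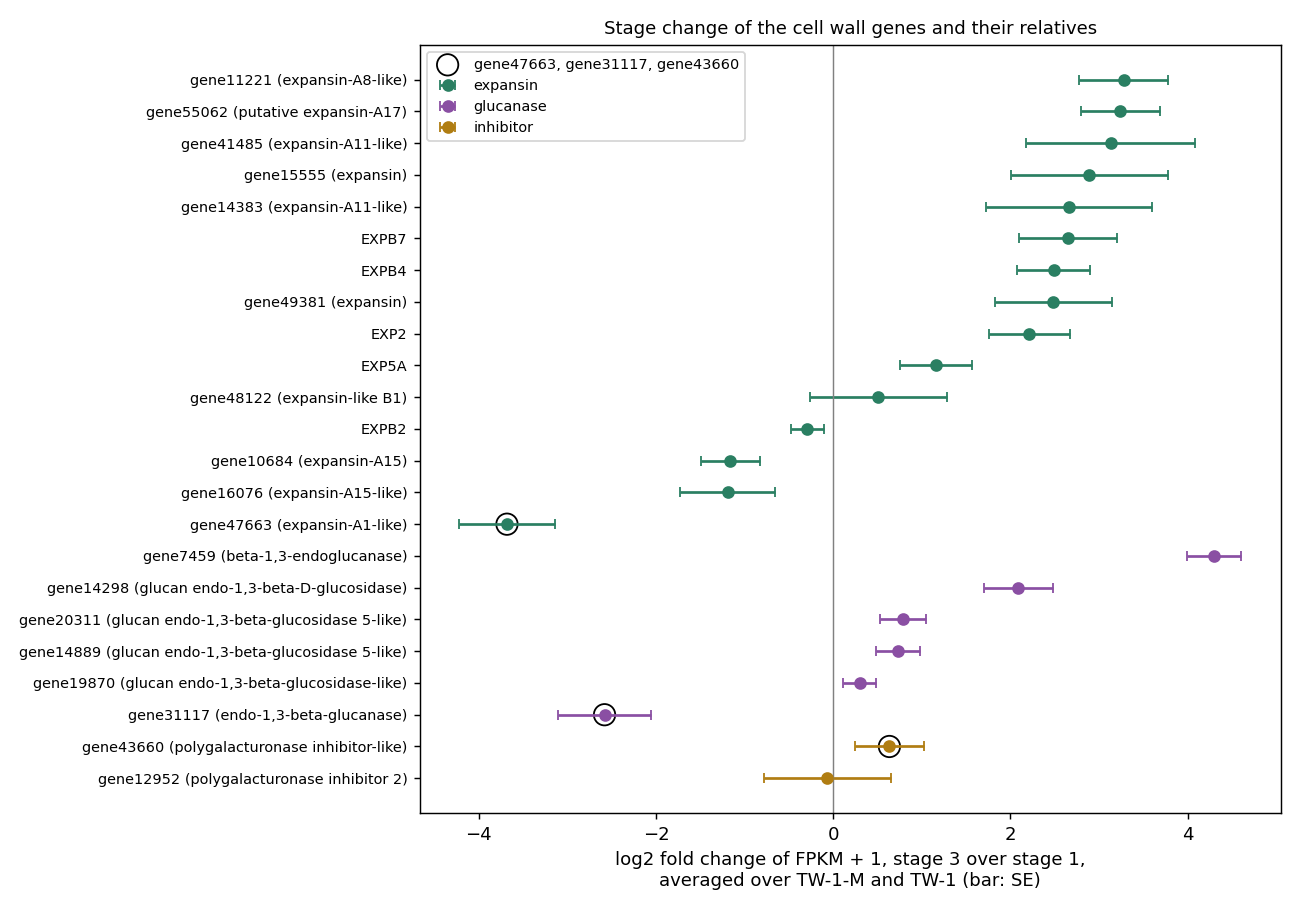
Log2 fold change of FPKM + 1 from stage 1 to stage 3, averaged over TW-1-M and TW-1, for the 3 genes (black rings) and the 20 relatives tested; points are limma estimates, bars are SE, and colours give the family. The expansin gene47663 (-3.68) and the glucanase gene31117 (-2.58) lie at the lower end of their families, whose other members lie mostly above 0, up to 4.30 for gene7459.

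The expansins of a seed could therefore be compared by their share of the family's summed FPKM, a sum over the 20 expansin genes of the table. FPKM is scaled to transcript length, so levels of different genes can be added. The sum was 413 ± 245, 807 ± 154 and 1051 ± 258 FPKM in stages 1, 2 and 3 of TW-1-M, against 409 ± 61.1, 606 ± 86.0 and 922 ± 526 FPKM in those of TW-1 (SD, n = 3 each). The totals of the mutants overlapped at stages 1 and 3. At stage 2 all 3 TW-1-M libraries, from 699 FPKM upwards, lay above the TW-1 libraries, which reached 661 FPKM. Of all genes tested, 25.7% had every TW-1-M value above every TW-1 value at this stage. The sum includes relatives that the study listed from these libraries, so no difference between the mutants is read from it.

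The share of gene47663 in this sum was 3.87% to 13.9% at stage 1 of TW-1-M, 0.34% to 0.58% at its stage 2 and 0.01% to 0.15% at its stage 3. In TW-1 it was 24.2% to 44.3% at stage 1, 9.68% to 21.4% at stage 2 and 0.38%, 0.69% and 14.1% at stage 3, the last value in replicate 1. It was the most abundant expansin in replicates 1 and 3 of TW-1-1, and in no other library. In TW-1-M-3 it ranked between 13 and 15 of the 20 genes, and EXP1 led in every library of TW-1-M-2 and TW-1-M-3. In the earlier TW-1 libraries and replicate 1 of TW-1-3, gene47663 and gene16076 led instead, apart from replicate 3 of TW-1-2, where EXP1 led.

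**Figure D3:**
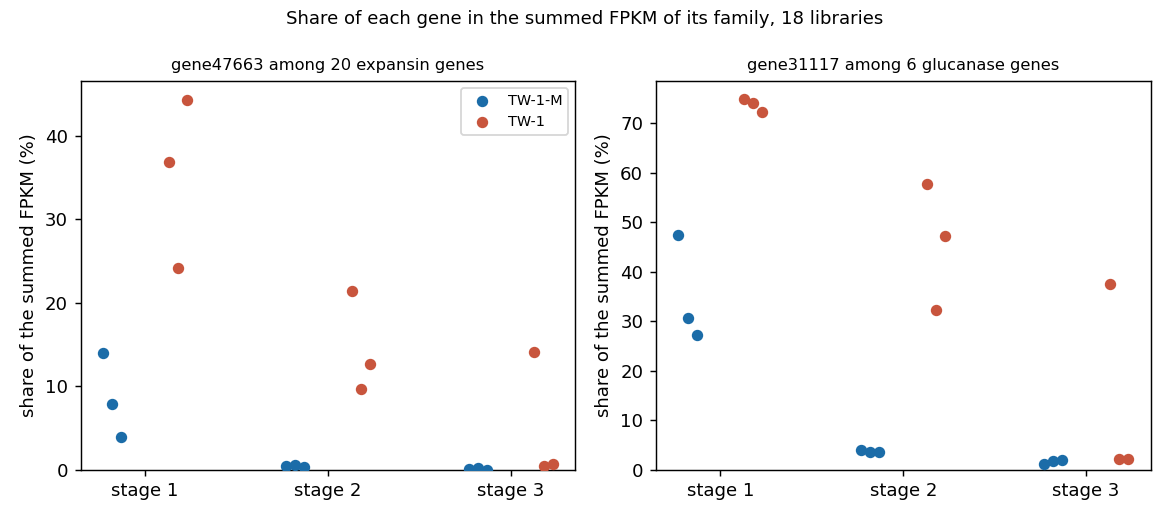
Share of gene47663 in the summed FPKM of 20 expansin genes (left) and of gene31117 in that of 6 glucanase genes (right), in percent, by stage, with TW-1-M (blue) left of TW-1 (red); each point is a library. The glucanase makes up 72.3% to 74.9% of its family in TW-1-1 and at most 3.88% in TW-1-M-2 and TW-1-M-3, and replicate 1 of TW-1-3 lies above its group in both panels.

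The glucanases changed places in the same way. The beta-1,3-endoglucanase gene7459 (LOC547822) rose by 4.30 on the log2 scale from stage 1 to stage 3 (SE 0.30, limma adjusted p = 6.3e-07), and it also rose in each step, by 2.76 (SE 0.30, limma adjusted p = 0.0011) and 1.54 (SE 0.30, limma adjusted p = 0.0080). It had 38.9, 43.3 and 58.4 FPKM at stage 1 of TW-1-M, 484, 1127 and 751 FPKM at its stage 2 and 1526, 1069 and 1390 FPKM at its stage 3. In TW-1 it had 64.9, 149 and 54.2 FPKM at stage 1, 302, 330 and 134 FPKM at stage 2 and 828, 1539 and 1161 FPKM at stage 3. Stage 3 lay above both earlier stages in TW-1, whose stages 1 and 2 overlapped, and in TW-1-M stages 2 and 3 overlapped.

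Of the 5 other glucanase genes, all tested, 2 rose from stage 1 to stage 3, gene7459 and gene14298 (2.09, SE 0.39, limma adjusted p = 0.00048), and none was called lower, against 19.0% of all genes called higher and 14.5% called lower. The remaining 3 were not called. The glucan endo-1,3-beta-glucosidase 5-like gene20311, with a mean of 241 FPKM over the 18 libraries, had a change of 0.79 (SE 0.26, limma adjusted p = 0.015), below the fold required. Its namesake gene14889 had 0.73 (SE 0.25, limma adjusted p = 0.017) and gene19870 had 0.30 (SE 0.18, limma adjusted p = 0.16), both at about 1.1 FPKM on average. With a pseudocount of 0.1 in place of 1, gene14889 was called higher at stage 3 (1.45, limma adjusted p = 0.039). The median of the 5 was 0.79.

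The share of gene31117 in the summed FPKM of the 6 glucanases was 27.1% to 47.4% at stage 1 of TW-1-M, 3.61% to 3.88% at its stage 2 and 1.13% to 1.87% at its stage 3. In TW-1 it was 72.3% to 74.9% at stage 1, 32.3% to 57.7% at stage 2 and 2.13%, 2.15% and 37.6% at stage 3, again with the highest value in replicate 1. At stage 3 the 2 other TW-1-3 libraries lay above the 3 TW-1-M-3 libraries by little, and gene7459 was the most abundant glucanase in all 6. The sum itself was 440 ± 46.2, 1179 ± 383 and 1714 ± 254 FPKM in stages 1, 2 and 3 of TW-1-M, against 869 ± 71.9, 804 ± 166 and 1736 ± 279 FPKM in those of TW-1 (SD, n = 3 each).

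The inhibitor had 1 relative in the table, gene12952 (polygalacturonase inhibitor 2). Unlike gene43660 it was above 0 in every library of both mutants. It had 0.54 to 7.73, 0.95 to 11.2 and 0.09 to 11.7 FPKM in stages 1, 2 and 3 of TW-1-M, against 0.89 to 4.04, 0.90 to 21.9 and 0.62 to 3.63 FPKM in those of TW-1. The groups overlapped throughout, and its change of -0.06 from stage 1 to stage 3 was not called (SE 0.72, limma adjusted p = 0.94).

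The symbol-only relatives were not among the 3415 gene numbers that could be read with a RefSeq ID in the study's additional files. The study may still have listed them for a difference between the mutants, which was not checked. They were the only relatives tested for one. Of the 5 tested (EXP2, EXP5A, EXPB2, EXPB4 and EXPB7), 1 was called at stage 2. This was EXPB4, a beta-expansin, with 3.25, 6.17 and 7.88 FPKM in TW-1-M-2 and 0.54, 2.44 and 1.26 FPKM in TW-1-2 and a log2 fold change of 1.50 (SE 0.37, limma adjusted p = 0.035). At stage 2, 6.28% of all genes tested were called higher in TW-1-M. The call was lost without replicate 2 (1.43) or 3 (1.27) of TW-1-M-2 or without replicate 3 of TW-1-2 (1.49), and when no filter on low values was used (1.50, limma adjusted p = 0.093).

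At stage 1 and stage 3 limma called 0 of the 5 genes, where 0.468% and 0.0184% of all genes were called in either direction, and at each of these stages 0 had an unadjusted p under 0.05. Over all stages EXPB4 was higher in TW-1-M by 1.03 (SE 0.34, limma adjusted p = 0.036), where 2.91% of genes were called higher. That value lies at the edge of the fold required, and the call was lost with any 1 of 11 of the 18 libraries left out. These were all 3 libraries of TW-1-M-3, replicate 3 of TW-1-M-1, replicates 2 and 3 of TW-1-M-2, replicates 2 and 3 of TW-1-1, replicates 1 and 3 of TW-1-2 and replicate 1 of TW-1-3, the last giving 0.71 and the others 0.93 to 1.06. It was also lost with a pseudocount of 0.1 (1.42, limma adjusted p = 0.10), with no filter (1.03, limma adjusted p = 0.053) and with quantile normalization, where the change of 0.93 was below the fold required (limma adjusted p = 0.033). In none of these symbol-only relatives was a call made in the direction of gene47663, and only EXPB4 was called between the mutants. EXPB2, not called, had a lower mean in TW-1-M-2 (0.23 FPKM) than in TW-1-2 (1.08 FPKM). EXP2, EXP5A, EXPB4 and EXPB7 had the higher mean in TW-1-M-2.

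A wider list of cell wall genes was taken from the study's additional files by their annotation (expansins, xyloglucan enzymes, pectin enzymes, glucanases, cellulose synthases, galactosidases and the like). It held 76 genes of the table besides the 3 genes, with the annotated relatives among them, and 73 were tested. From stage 1 to stage 3, 45 rose, 4 fell and 24 were not called, with a median log2 fold change of 1.28, against 19.0% of all genes called higher, 14.5% called lower and a median of 0.11. The study chose these genes on the same libraries. Those that fell were gene13108, a xyloglucan endotransglucosylase/hydrolase (-1.95), gene36681, a pectate lyase (-1.82), gene10684 and gene23641, a cellulose synthase-like protein (-1.02), and gene47663 and gene31117 lay below all 4. Between stage 1 and stage 2, 14 of the 73 rose and 0 fell, also 0 at the unadjusted p, against 4.20% of all genes called higher and 2.14% called lower. Between stage 2 and stage 3, 5 rose and 1 fell, against 1.73% and 2.95% of all genes. These step counts moved with single libraries, and without replicate 1 of TW-1-3 they were 28 and 0, then 17 and 5.

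The summed FPKM of seed storage genes moved with the expansin and the glucanase, though not every gene in the sum did. The summed FPKM of the 7 seed storage genes was 708 to 814, 327 to 358 and 65.8 to 167 in stages 1, 2 and 3 of TW-1-M, against 1125 to 1922, 808 to 1231 and 200 to 878 in those of TW-1. The highest of the TW-1-3 sums was that of replicate 1. By the means the sum was 1.94-fold lower in TW-1-M at stage 1, 2.98-fold at stage 2 and 4.46-fold at stage 3, or 2.42-fold at stage 3 without replicate 1 of TW-1-3. Taken singly, 5, 4 and 6 of the 7 genes had a lower mean in TW-1-M at stages 1, 2 and 3. The exceptions were GY3 at every stage, with means of 5.66, 1.92 and 0.48 FPKM in TW-1-M, against 0.14, 0.15 and 0.07 FPKM in TW-1, KTI3 at stage 1 (140 FPKM in TW-1-M-1 and 104 FPKM in TW-1-1), and at stage 2 KTI1 (79.5 FPKM in TW-1-M-2 and 59.3 FPKM in TW-1-2) and P34 (17.9 FPKM in TW-1-M-2 and 12.9 FPKM in TW-1-2). All 7 had a lower mean at stage 3 than at stage 1 in TW-1-M and 6 did in TW-1, where KTI3 had 95.5 to 152 FPKM at stage 3 and 97.0 to 118 FPKM at stage 1. The 3 leaf markers that were matched (RBCS-1 and 2 rows of CAB3) were higher in sum at later stages, with medians of 98.4, 586 and 1080 FPKM in TW-1-M and 76.5, 325 and 1781 FPKM in TW-1.

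**Figure D4:**
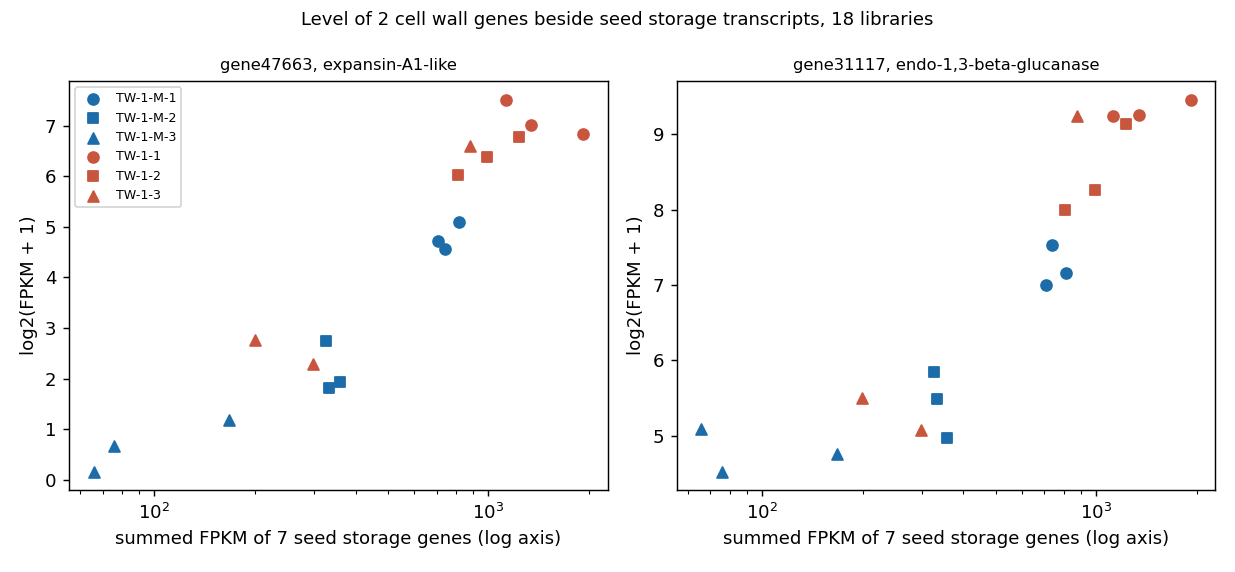
Level of gene47663 (left) and gene31117 (right) as log2(FPKM + 1) against the summed FPKM of 7 seed storage genes (log axis), with TW-1-M in blue and TW-1 in red, circles for stage 1, squares for stage 2 and triangles for stage 3; each point is 1 of 18 libraries. Both genes are high where the storage sum is high, and the red triangle at 878 FPKM is replicate 1 of TW-1-3.

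Over the 18 libraries the log2 value of gene47663 had a Pearson r of 0.94 with the log2 storage sum, gene31117 one of 0.90 and gene43660 one of -0.63. These are descriptions, since libraries of a group share mutant, stage and the authors' scaling. The difference between the mutants, for which the expansin was chosen, was larger in the expansin than in the storage sum. Per storage sum, gene47663 stood at 3.07% to 4.10% in TW-1-M and 5.91% to 16.1% in TW-1 at stage 1, at 0.76% to 1.75% in TW-1-M and 7.92% to 8.82% in TW-1 at stage 2, and at 0.18% to 0.79% in TW-1-M and 1.30% to 10.8% in TW-1 at stage 3, without overlap at any stage. For gene31117 the same ratio was 17.5% to 24.8% in TW-1-M and 36.7% to 53.8% in TW-1 at stage 1, and 8.47% to 17.3% in TW-1-M and 30.8% to 45.7% in TW-1 at stage 2. At stage 3 it overlapped, with 15.6% to 50.0% in TW-1-M-3 and 11.0% to 69.1% in TW-1-3. Without replicate 1 of TW-1-3, the stage 3 means differed 1.43-fold in gene31117 and 2.42-fold in the storage sum. How many of all genes separate the mutants after this division was not counted. The part of the storage tissue in the fall with stage and in the difference between the mutants was not tested.

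The expansin and the glucanase followed each other over the libraries, with a Pearson r of 0.97 between their log2 values. The inhibitor had an r of -0.70 with the expansin and of -0.64 with the glucanase. All 3 were chosen on the difference between the mutants or on abundance, which sets part of these values. Among all genes tested, those most like gene47663 were gene20243, an aspartic proteinase-like gene (r = 0.99), gene9199, the transcription factor MYB68 (r = 0.98), and LOC100779094 (r = 0.98). Those most like gene31117 were LOC100797335 (r = 0.98), LOC100786239 (r = 0.98) and gene30735, a heat shock factor HSF24-like gene (r = 0.98). Those most like gene43660 were LOC100798748 (r = 0.93), LOC102665474 (r = 0.92) and gene39763, a sugar kinase-like gene (r = 0.89).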

How the data were processed

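The authors trimmed the reads of germinating seeds with Trimmomatic, mapped them with TopHat, ran cuffquant and cuffnorm, and deposited 1 table with the FPKM of every gene in the 18 libraries. The study names a Glyma assembly of the soybean genome, and tool versions are not given in the sources used here. These FPKM hold the authors' normalization between libraries. Samples were grouped by the mutant and stage in their labels.

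A gene was tested if at least 3 libraries had an FPKM of 1 or more (27150 genes). limma 3.58.1 (R 4.3.3) was run on log2(FPKM + 1) with 6 groups and an eBayes trend, two-sided, and p-values were adjusted by Benjamini-Hochberg over all genes tested. The 1 added makes fold changes of low genes smaller. Stage changes used 18 libraries, and differences between the mutants at a stage used 6. The fit was tested on simulated data. Values and figures used Python 3.11.15, pandas 2.3.3 and matplotlib 3.10.9.

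The 3 genes, the lists and the tests were chosen with earlier results of these data known. By rule, the text names in each family the 5 relatives of highest mean FPKM and the relative called between mutants with the largest change, and for each gene the 3 most correlated ones. Other relatives and cell wall genes were named after their values were seen. A family search by protein sequence, with its alternative identity, was planned and not run. Symbols came from the RefSeq gene table of Glycine_max_v4.0, without coordinates, and 5 symbols of relatives were not matched. The settings varied were the pseudocount (0.1), the filter (absent, or every library), quantile normalization, a replicate block, the unadjusted p, 12 libraries for a stage change, the ratio of group means, and leaving out each library.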

Additional observations from a re-analysis of the deposited data

How the results depend on the processing

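The fall of gene47663 and of gene31117 from stage 1 to stage 3 kept its direction and its call under the alternatives that could be fitted and with each library left out. With a filter in every library gene47663 and gene43660 were not in the fit. From stage 1 to stage 2 the call of gene47663 was lost with a pseudocount of 0.1 (-1.83) and without the filter (-1.68), and from stage 2 to stage 3 in the 12 libraries of those stages, where it fell by 2.00. For gene31117 the earlier step was called in the 12 libraries and at the unadjusted p (-1.33 in both), and the later one at the unadjusted p (-1.25). The line ratio of gene47663 at stage 3 was -5.73 from group means and -3.21 from log2 values. Quantile normalization turned gene19870 to -0.095 from stage 1 to stage 3.

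Counts of called genes moved most. Relatives called higher from stage 1 to stage 2 (6) were 3 without the filter, 2 with a filter in every library and 11 at the unadjusted p. From stage 2 to stage 3 (3) they were 1 with a pseudocount of 0.1, without the filter and with a filter in every library. From stage 1 to stage 3 (12) they were 4 with a filter in every library, and those lower (1) were 2 with a pseudocount of 0.1, the replicate block or the unadjusted p. Cell wall genes called higher from stage 1 to stage 2 (14) were 6 without the filter, 3 with a filter in every library, 8 with quantile normalization, 24 with the replicate block and 29 at the unadjusted p, and those lower (0) were 1 with a pseudocount of 0.1. From stage 2 to stage 3 those higher (5) were 3 with a pseudocount of 0.1, 2 without the filter and 1 with a filter in every library, and those lower (1) were 0 without the filter. From stage 1 to stage 3 those higher (45) were 7 with a filter in every library, which leaves fewer genes, and those lower (4) were 7 with a pseudocount of 0.1. Symbol-only relatives called between the mutants at stage 2 (1) were 0 without the filter or with a filter in every library and 2 at the unadjusted p. Over all stages (1) they were 0 with a pseudocount of 0.1, without the filter or with a filter in every library, and 2 with the replicate block or the unadjusted p. The cause of these changes was not tested, and the alternatives for the cell wall list were added after the data were seen.

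With a library left out, the changes for stage 2 over 1, 3 over 2 and 3 over 1 ranged from -1.83 to -1.58, -2.68 to -1.60 and -4.36 to -3.28 in gene47663, from -1.50 to -1.21, -1.91 to -0.87 and -3.24 to -2.20 in gene31117, and from 0.70 to 1.34, -0.46 to 0.0085 and 0.42 to 1.06 in gene43660. That of gene12952 from stage 1 to stage 3 ranged from -0.50 to 0.39. The differences between the mutants ranged at stage 3 from -2.59 to -0.50 in gene31117, and at stages 1, 2 and 3 from 0 to 1.28, 2.54 to 2.92 and 1.76 to 2.70 in gene43660. Relatives called higher ranged over 1 to 11, 1 to 8 and 10 to 12 in these stage changes, and those lower over 0 to 2 from stage 2 to 3 and from stage 1 to 3. Cell wall genes called higher ranged over 1 to 30, 2 to 17 and 37 to 48, and those lower over 0 to 2, 0 to 5 and 2 to 7. Symbol-only relatives called between the mutants ranged over 0 to 2 at stage 2 and over all stages.

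Whether replicate numbers pair the samples was not settled. The deviations of same-numbered libraries of the mutants had correlations from -0.58 to 0.53 within a stage. Between all groups, same-numbered libraries had a mean correlation of 0.096 (highest 0.735), against -0.043 for libraries of other numbers. The replicate block left each stage call of the 3 genes as it was. FPKM without counts limits what can be said of values near 0.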
